A study of Arabidopsis thaliana with 6 samples.

Results

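Transcript levels of genes carried by the mitochondrial genome were read from ATH1 arrays of whole Arabidopsis thaliana plants. Each transcript on this array is read by a probe set, several short probes whose brightness is summarised as 1 signal. Of 22746 probe sets on the arrays, 27 were annotated to a mitochondrial gene by its symbol, and all 27 were kept whatever their signal. They stand for 18 genes, 16 of them with a probe set of their own, out of 14349 genes named on the array. They were found by a symbol starting nad, cox, cob, ccm, orf or mat-r, which gave 22, by an older name that the RefSeq gene table lists for a ccm gene, which gave 4 (ccb206 for ccmB, ccb452 for ccmFC, ccb382 for ccmFN1 and ccb203 for ccmFN2), and by the spelling matR, which gave 1. No ArthMp locus tag was given in the tables used, so no member was found by tag, and plastid genes were not taken.

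The study compared 3 arrays of an atm mutant with 3 arrays of the wild type, strain Col0. The labels call the mutant line atm, ATM1 and AtATM3 mutant, and ATM is the protein kinase that signals DNA double-strand breaks. Plants of both genotypes were at growth stage 1.04, on agar medium with sucrose, under 9 h of light and 15 h of dark at 22 °C. The series title speaks of X-ray inducible transcripts, but the labels give no irradiation for either genotype. The labels do not state whether replicates were grown apart, so the p-values below rest on a spread between arrays that may be technical. No probe set used here is named for ATM, so the genotype was not checked at its own transcript, and the strain background of the mutant is not given in the labels.

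Plant mitochondria keep a small genome that encodes core subunits of the respiratory chain, proteins that attach haem to cytochrome c, and part of the mitochondrial ribosome. Its transcripts are spliced, edited and trimmed by proteins imported from the cytosol, and in plants a poly(A) tail on a mitochondrial transcript is known as a mark for decay. The labelling kit for these arrays is known to prime from poly(A) tails, so a signal here need not follow the amount of the transcript. A large copy of the mitochondrial genome lies on nuclear chromosome 2 in this species, and 4 of the 27 probe sets were annotated to a mitochondrial gene and a chromosome 2 locus together. Another 5 of the 27 also carry the array's mark for a probe set that can read several transcripts. Signal from near-identical copies cannot be told apart in these 9. Probe sequences were not compared with the chromosome 2 copy, so the other probe sets may read it too. The 4 probe sets annotated to 2 genes are given with both names.

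The 27 probe sets covered 18 of the 32 protein-coding symbols that the RefSeq table lists for the mitochondrial genome. By role, 17 probe sets were for complex I (the NADH dehydrogenase), of which 9 were for nad1, 1 for cytochrome b, 3 for cytochrome oxidase, 4 for cytochrome c maturation, 1 for the maturase matR and 1 for the transport protein gene mttB. The only open reading frame symbol was orfX, which the RefSeq table lists as mttB, a gene known to encode a membrane protein related to bacterial TatC. With mttB counted as a known gene, 0 open reading frames without a known product remained, so known genes and open reading frames could not be compared and the values of mttB are given beside those of the other genes.

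Most of these probe sets were dim. MAS5 signals, the authors' intensity summary on a linear scale with arbitrary units, had array medians between 40.01 and 41.33. In 15 of the 27 no array reached its own 40th percentile, which lay between 24.66 and 26.04, against 32.7% of all probe sets. Only nad4, cox1, ccmFN1 and mttB were above the 40th percentile on all 6 arrays, which is 14.8% of the 27 against 53.0% of all probe sets. The probe set for matR was below the 20th percentile on all 6 arrays. With 1 more, the probe set annotated to cox3 and AT2G07687, 5 of the 27 exceeded the 40th percentile on at least 3 arrays. Signals of different probe sets depend on their oligonucleotides and give no order of transcript amounts.

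**Figure D1:**
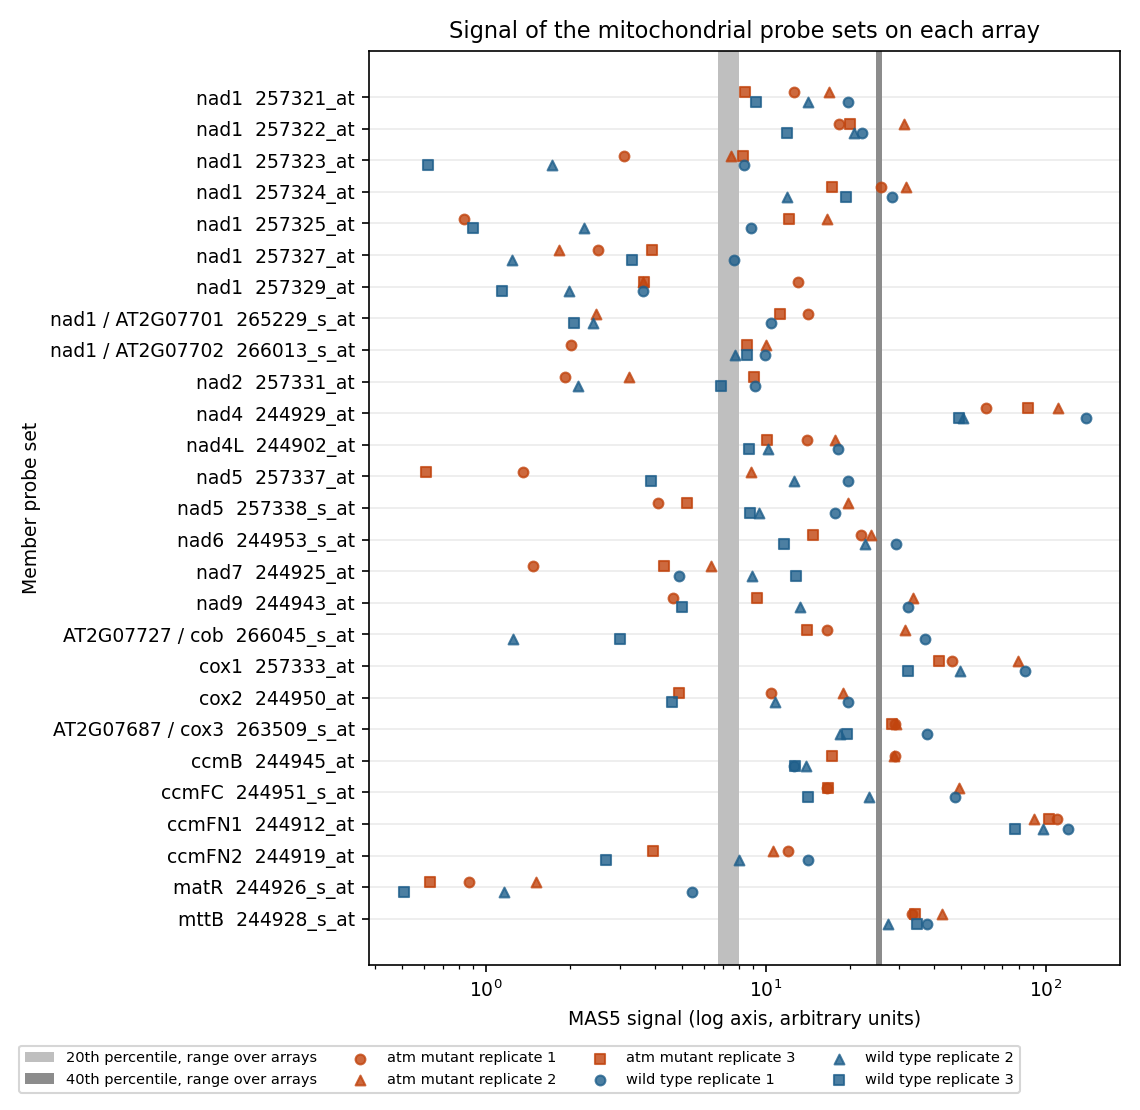
MAS5 signal (log axis, arbitrary units) of each of the 27 mitochondrial probe sets on the 3 atm mutant arrays (orange) and the 3 wild type arrays (blue), with the symbol for the replicate number and grey bands for the range over arrays of the 20th and 40th percentiles. The nad4 and ccmFN1 probe sets lie right of both bands on every array, and the matR probe set lies left of both.

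No mitochondrial probe set passed the test between genotypes. Log2 signals of all 22746 probe sets were fitted with limma, as atm mutant minus wild type, with Benjamini-Hochberg adjustment and a threshold of 0.05. It called 0 of the 27, against 0.132% of all probe sets (30, all of them lower in the mutant), and the limma adjusted p was 0.9997 for each of the 27. At an unadjusted p under 0.05 there was 1 of the 27, against 3.75% of all probe sets. The fitted log2 change was above 0 in 15 and below 0 in 12, with a median of 0.06, while the median over all probe sets was 0.02. The changes ranged from -2.35 to 1.90. The largest came from dim probe sets: with signals below the 20th percentile of their array set to it, 257337_at of nad5 had -0.57 in place of -2.35, and the probe set of cob and AT2G07727 had 0.62 in place of 1.90. In the same way 257323_at and 257329_at of nad1 had 0.07 and 0.30 in place of 1.48 and 1.47, and nad7 had -0.30 in place of -1.26. The median standard error of the change was 0.70 for the 27 and 0.29 for all probe sets.

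Complex I takes electrons from NADH and passes them to ubiquinone. Its only probe set above the 40th percentile on all 6 arrays was that of nad4, a membrane subunit of the proton pump. It had signals of 61.4, 111 and 86.4 on atm mutant replicates 1, 2 and 3, against 139, 50.7 and 49.0 on wild type replicates 1, 2 and 3. Wild type replicate 1 was the highest of all 6 arrays and the other 2 wild type arrays were the lowest, so the groups overlapped. The log2 change was 0.26 (SE 0.41, 95% interval -0.69 to 1.20), which spans a fold of 0.621 to 2.30 for mutant over wild type.

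The nad5 gene, another membrane subunit, had 2 probe sets. The first, 257337_at, had 1.35, 8.82 and 0.609 on atm mutant replicates 1, 2 and 3, against 19.6, 12.6 and 3.89 on wild type replicates 1, 2 and 3. Mutant replicates 1 and 3 were below every wild type array, and replicate 2 was within the wild type range. Its log2 change was -2.35 (SE 1.08, limma unadjusted p = 0.0608). The second, 257338_s_at, had a log2 change of -0.60 (SE 0.68), with 4.13, 19.6 and 5.24 in the atm mutant against 17.6, 9.47 and 8.75 in the wild type. Both nad5 probe sets were thus dimmest on mutant replicates 1 and 3.

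For nad7, a subunit of the arm that faces the matrix, the signals were 1.47, 6.37 and 4.32 on atm mutant replicates 1, 2 and 3, against 4.89, 8.90 and 12.8 on wild type replicates 1, 2 and 3. The groups overlapped through mutant replicate 2 and wild type replicate 1, and the log2 change was -1.26 (SE 0.73, unadjusted p = 0.122). It was 1 of 2 members in which wild type replicate 1 was not the highest wild type array. For nad9, of the same arm, the signals were 4.65, 33.6 and 9.32 in the atm mutant against 32.3, 13.2 and 5.02 in the wild type. One array of each genotype stood above the other 4, mutant replicate 2 and wild type replicate 1, and the log2 change was -0.19 (SE 0.88).

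The nad1 gene encodes a membrane subunit at the base of the matrix arm, and some of its exons are joined by trans-splicing from separate transcripts. Its 7 probe sets annotated to nad1 alone had log2 changes from -0.27 to 1.48 with a median of 0.37, and 5 of the 7 were above 0. The 257329_at probe set had 13.0, 3.65 and 3.67 on atm mutant replicates 1, 2 and 3, against 3.65, 1.98 and 1.14 in the wild type. The mutant arrays were all above the wild type arrays, but mutant replicate 2 and wild type replicate 1 were equal to 3 digits. Its log2 change was 1.47 (SE 0.78, unadjusted p = 0.0967), and 5 of its 6 values were below the 20th percentile of their array. The 257323_at probe set had 3.11, 7.51 and 8.32 in the atm mutant against 8.35, 1.72 and 0.622 in the wild type, a log2 change of 1.48 (SE 1.00).

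Only 257322_at and 257324_at of the nad1 probe sets exceeded the 40th percentile on any array. The 257324_at probe set had 25.7, 31.7 and 17.2 in the atm mutant against 28.3, 11.9 and 19.3 in the wild type, a log2 change of 0.37 (SE 0.42). The 257322_at probe set had 18.3, 31.2 and 20 in the atm mutant against 22, 20.7 and 11.9 in the wild type, a log2 change of 0.36 (SE 0.39). In both the genotypes overlapped, and mutant replicate 2 was the highest of the 6 arrays. The other probe sets for nad1 alone had log2 changes of -0.17 (257321_at), 1.08 (257325_at) and -0.27 (257327_at). A further 2 were annotated to nad1 with AT2G07701 or AT2G07702, and they had 0.96 (SE 0.91) and -0.64 (SE 0.70).

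The remaining complex I subunits, nad2, nad4L and nad6, all belong to the membrane arm. The log2 change was -0.41 (SE 0.84) for nad2, 0.21 (SE 0.46) for nad4L and 0.00 (SE 0.43) for nad6. In nad4L the 2 highest arrays were wild type replicate 1 with 18.1 and atm mutant replicate 2 with 17.6, against 8.71 to 14 on the other 4.

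Cytochrome oxidase is the last enzyme of the chain and reduces oxygen to water. Its catalytic subunit gene cox1 had 46.4, 79.5 and 41.5 on atm mutant replicates 1, 2 and 3, against 84.6, 49.6 and 32.2 on wild type replicates 1, 2 and 3. The groups overlapped almost wholly, and the log2 change was 0.06 (SE 0.38, 95% interval -0.82 to 0.95). The cox2 gene, for the subunit that receives electrons from cytochrome c, had 10.4, 18.9 and 4.89 in the atm mutant against 19.6, 10.8 and 4.62 in the wild type, a log2 change of -0.01 (SE 0.71). The probe set annotated to cox3 and AT2G07687 had 29.0, 29.2 and 28.3 in the atm mutant against 37.6, 18.4 and 19.5 in the wild type, a log2 change of 0.28 (SE 0.34). The mutant values of this probe set lay within the wild type range.

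The probe set annotated to cob, which encodes cytochrome b of complex III, and to AT2G07727 had the widest log2 spread of the 27 in the wild type, with an SD of 2.54 (n = 3). Its signals were 16.5, 31.4 and 14 on atm mutant replicates 1, 2 and 3, against 37.0, 1.25 and 3.02 on wild type replicates 1, 2 and 3. Wild type replicate 1 was the highest of the 6 arrays and the other 2 wild type arrays were the lowest. The log2 change was 1.90 (SE 1.13, unadjusted p = 0.132).

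The cytochrome c maturation proteins carry and attach haem to c-type cytochromes. The ccmB gene, for a membrane protein of the haem transporter, gave the smallest p of the 27. It had 29.0, 28.7 and 17.2 on atm mutant replicates 1, 2 and 3, against 12.6, 13.9 and 12.7 on wild type replicates 1, 2 and 3. All 3 mutant arrays were above all 3 wild type arrays, and the log2 change was 0.89 (SE 0.36, limma unadjusted p = 0.0367, adjusted p = 0.9997). Together with 257329_at of nad1 it made 2 of the 27 with the mutant wholly above the wild type and 0 wholly below, where 4.67% and 4.52% of all probe sets did so and 9.19% did either.

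The ccmFN1 gene, for a part of the haem ligation complex, had the smallest standard error of the 27. It had 110, 90.5 and 103 in the atm mutant against 120, 97.9 and 77.5 in the wild type. Its log2 change was 0.06 (SE 0.18), with a 95% interval from 0.776-fold to 1.40-fold for mutant over wild type. The ccmFC gene, for another part of that complex, had 16.6, 49.2 and 16.7 in the atm mutant against 47.5, 23.4 and 14.2 in the wild type, a log2 change of -0.07 (SE 0.57). In ccmFC mutant replicate 2 and wild type replicate 1 stood about level and above the other 4. The ccmFN2 gene had a log2 change of 0.24 (SE 0.76).

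The matR gene lies in an intron of nad1 and encodes a protein known to act in group II intron splicing. Its signals were 0.870, 1.51 and 0.632 in the atm mutant against 5.45, 1.16 and 0.507 in the wild type, with a log2 change of -0.65 (SE 0.97). All of these values were below the 20th percentile, so no order between genotypes can be read from them. The mttB gene, listed as orfX, had 33.2, 42.7 and 34.1 in the atm mutant against 37.6, 27.4 and 34.7 in the wild type. Its groups overlapped, and the log2 change was 0.15 (SE 0.24), with a 95% interval from 0.7501-fold to 1.63-fold.

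**Figure D2:**
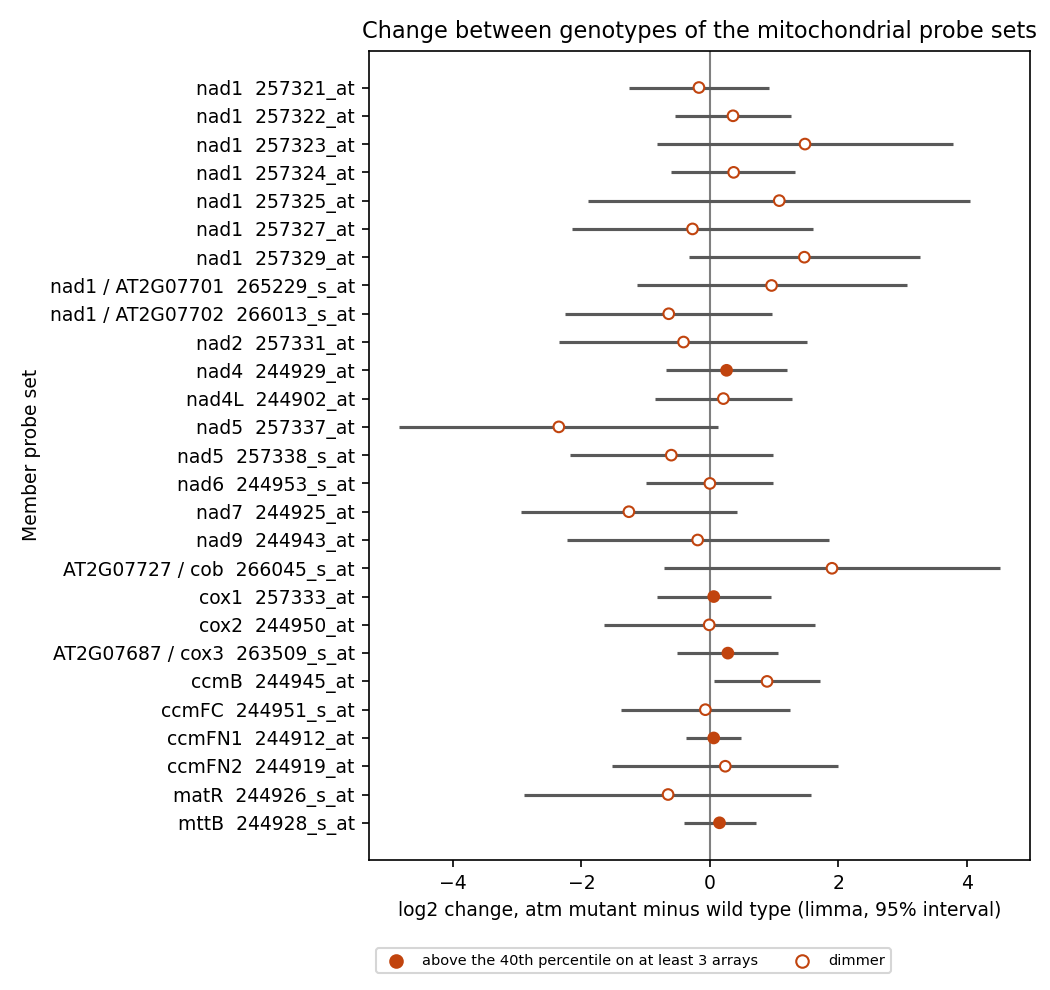
Log2 change, atm mutant minus wild type, of each of the 27 mitochondrial probe sets, with limma's 95% interval as a bar. Filled points are the 5 probe sets above the 40th percentile on at least 3 arrays. Only the ccmB interval leaves out 0, and its adjusted p was 0.9997.

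The arrays of a genotype were spread more widely than the means of the genotypes lay apart. Each probe set's log2 signal was set against its own mean over the 6 arrays. The median of these deviations over the 27 probe sets was -0.12, 0.53 and -0.05 on atm mutant replicates 1, 2 and 3, against 0.86, -0.08 and -0.64 on wild type replicates 1, 2 and 3. By genotype this is 0.12 ± 0.36 in the atm mutant and 0.05 ± 0.76 in the wild type (SD, n = 3 each). Over all probe sets the same medians lay between -0.01 and 0.03 on every array. On wild type replicate 1, 25 of the 27 probe sets were above their own mean, and on atm mutant replicate 2, 23 were, against 5 on wild type replicate 3. Of all probe sets, 50.6%, 51.6% and 48.8% were above their own mean on these arrays, in the same order.

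Earlier results of these data had already shown that wild type replicate 1 and atm mutant replicate 2 deviate together over many probe sets, so the pair was not found here and its values are given with no test. Atm mutant replicate 2 was the highest mutant array in 19 of the 27 probe sets, against 36.5% of all probe sets. Wild type replicate 1 was the highest wild type array in 25 of the 27, against 37.1%. Both held in 18 (66.7%), against 19.4% of all probe sets. Atm mutant replicate 2 exceeded the mean of the other 2 mutant arrays by a median log2 difference of 0.62, or 1.54-fold. Wild type replicate 1 exceeded the mean of the other 2 wild type arrays by a median of 1.26, or 2.395-fold. The corresponding medians over all probe sets were 0.00. Wild type replicate 3 was the lowest wild type array in 18 of the 27 (66.7%), against 32.7% of all probe sets. The difference of 1.26 thus also holds the low signals of wild type replicate 3.

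**Figure D3:**
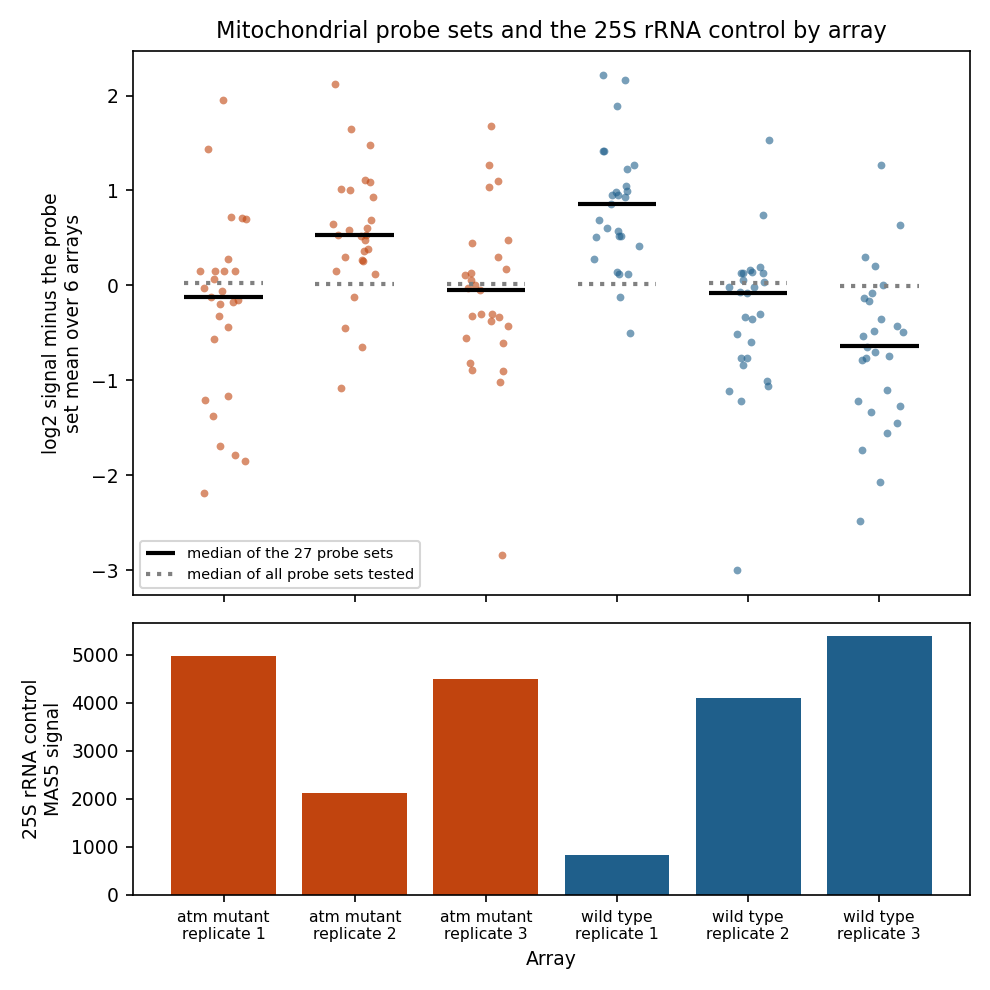
Upper panel, deviation of each of the 27 mitochondrial probe sets from its own mean log2 signal over the 6 arrays, with the median of the 27 (black) and of all probe sets (dotted), for atm mutant arrays (orange) and wild type arrays (blue). Lower panel, MAS5 signal of the 25S rRNA control. The median is highest on wild type replicate 1, at 0.86, and on atm mutant replicate 2, at 0.53, the arrays with the lowest 25S signals.

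The same 2 arrays had the lowest signals of the 25S ribosomal RNA control. It was 4973, 2123 and 4501 on atm mutant replicates 1, 2 and 3, against 836, 4106 and 5400 on wild type replicates 1, 2 and 3. The ratio of 3' to 5' signal for GAPDH, a measure of RNA integrity and labelling, was 1.56, 1.49 and 1.41 in the atm mutant against 1.41, 1.08 and 1.101 in the wild type, so it was high on wild type replicate 1 but did not set mutant replicate 2 apart. It was lowest on wild type replicates 2 and 3, and so partly differed by genotype. With wild type replicate 1 left out, this ratio and genotype cannot be told apart. The part of either measure in the mitochondrial signals was not tested. The 25S control is a cytosolic ribosomal RNA, and in whole plants fewer cells of a type and less RNA per cell cannot be told apart.

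By role, the pair stood highest within its genotypes in 11 of 17 complex I probe sets, in 3 of 3 for cytochrome oxidase, in the cob and AT2G07727 probe set, in matR and in mttB, and in 1 of 4 for cytochrome c maturation, which was ccmFC. Complex I probe sets differed by a median of 0.61 for atm mutant replicate 2 and 1.26 for wild type replicate 1, each against the mean of the other 2 arrays of its genotype. Those for cytochrome oxidase had medians of 0.86 and 1.08, and those for cytochrome c maturation 0.49 and 0.92. Of the 4 members above the 40th percentile on every array, nad4 and cox1 showed it: the 2 differences were 0.61 and 1.48 for nad4 and 0.86 and 1.08 for cox1. They were smaller in mttB, at 0.34 and 0.28, and of opposite sign in ccmFN1, at -0.23 and 0.46.

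Another 8 probe sets of the mitochondrial genome carried symbols outside the rule, for subunits of the ATP synthase and of the mitochondrial ribosome, each annotated to more than 1 gene. Limma called 0 of the 8 between genotypes (adjusted p = 0.9997 for each), against 0.132% of all probe sets. The median log2 change of the 8 was 0.31. Their median differences were 0.81 for atm mutant replicate 2 and 1.18 for wild type replicate 1. Both arrays were the highest of their genotype in 5 of the 8, against 19.4% of all probe sets. The probe set annotated to atp9, the ring subunit of the ATP synthase, and AT2G07671 had 52.6, 190 and 59.6 in the atm mutant against 163, 67.2 and 67.7 in the wild type. It is named for its spread, chosen after its values were seen.

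**Figure D4:**
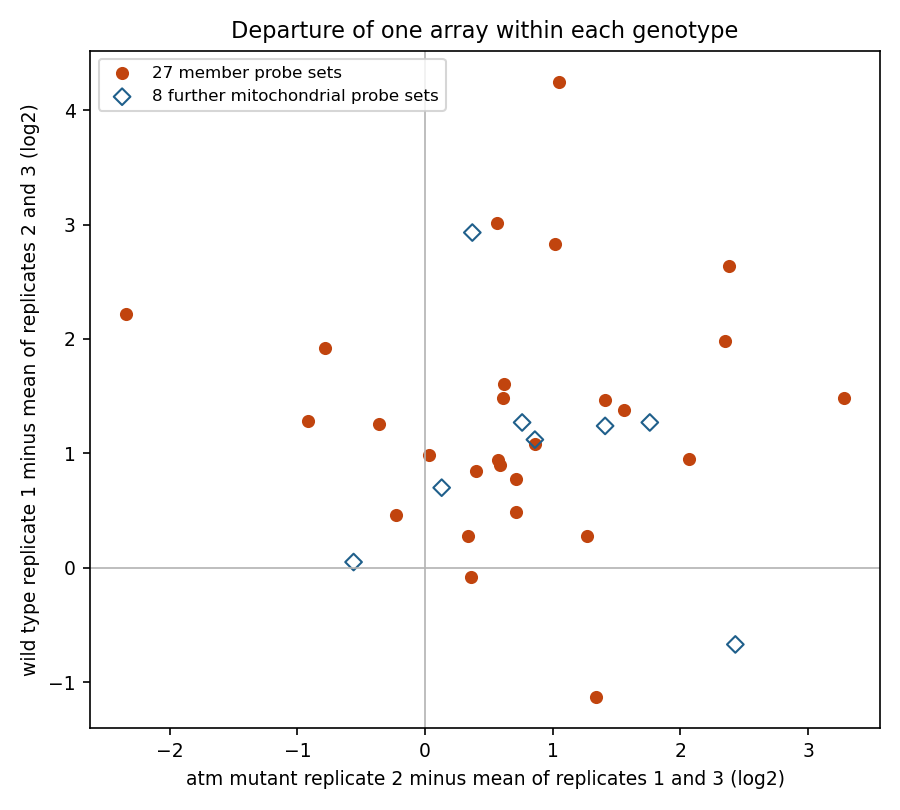
Log2 signal of atm mutant replicate 2 minus the mean of mutant replicates 1 and 3 (horizontal) against wild type replicate 1 minus the mean of wild type replicates 2 and 3 (vertical), for the 27 mitochondrial probe sets (filled) and the 8 further ones outside the rule (open diamonds). Both differences are above 0 in 20 of the 27 and in 6 of the 8, against 30.9% of all probe sets.

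Genes of the plastid, the other organelle with a genome, were set beside them. Over 69 plastid probe sets the medians of the same differences were 0.08 for atm mutant replicate 2 and 0.18 for wild type replicate 1. Both arrays were highest in 23 (33.3%), against 19.4% of all probe sets. On chromosome 2, 22 probe sets were annotated to a single locus between AT2G07671 and AT2G07734, the outermost loci that share a probe set with a mitochondrial gene here. Their medians were 0.01 and 0.36, and both arrays were highest in 7 (31.8%), also above the 19.4% of all probe sets. In 17 of the 22 no array reached the 40th percentile, against 32.7% of all probe sets. The difference between the mitochondrial probe sets and either of these groups was not tested.

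Without wild type replicate 1 and atm mutant replicate 2, limma on the other 4 arrays called 0 of the 27, against 0.488% of all probe sets, with the lowest adjusted p at 0.273. The median log2 change was then 0.29, with 19 above 0 and 8 below. At an unadjusted p under 0.05 there were 5 of 27 (18.5%), against 10.1% of all probe sets. The arrays left out were chosen because they deviated in these same data, and that choice itself lowers the spread. The p-values from the 4 arrays are therefore descriptive and are no test of the genotypes. Higher in the atm mutant were nad4, with a log2 change of 0.55 (SE 0.22, adjusted p = 0.434), the probe set of cob and AT2G07727 with 2.97 (SE 0.86) and that of nad1 and AT2G07701 with 2.48 (SE 0.81). Lower were 257337_at of nad5, with -2.95 (SE 1.06), and nad7, with -2.08 (SE 0.90). Apart from nad4, these changes rest on signals below the 20th percentile on both kept arrays of the lower genotype. On wild type replicates 2 and 3 they were 1.25 and 3.02 for cob and AT2G07727, and 2.42 and 2.07 for nad1 and AT2G07701. On atm mutant replicates 1 and 3 they were 1.35 and 0.609 for 257337_at, and 1.47 and 4.32 for nad7. The size of these changes is therefore uncertain. None of the 5 was called, and ccmB was not among them. With arrays weighted by their agreement with the fit, 6 of 27 had an unadjusted p under 0.05, against 6.71% of all probe sets, and 0 were called. Leaving out wild type replicate 1 alone moved the median of the 27 to 0.48, with the same sign. Leaving out wild type replicate 3 alone turned its sign, to -0.20.

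Nuclear genes that serve mitochondria showed no call either. Of 20 listed loci for maintenance and RNA processing of the mitochondrial genome 7 were named on the array by a probe set of 1 gene, of 17 for nuclear-encoded respiratory chain subunits 4, and of 14 for the response to mitochondrial stress 6. Limma called 0 of these 17, against 0.132% of all probe sets, and 1 had an unadjusted p under 0.05, against 3.75% of all probe sets. Their median log2 changes were 0.07, 0.00 and -0.12. Among the processing genes, AT5G14580, for a mitochondrial polynucleotide phosphorylase, had 0.68 (SE 0.50) and OTP43, for a splicing factor of a nad1 intron, had 0.63 (SE 0.64). Neither exceeded the 40th percentile on any array.

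Of the respiratory chain list, the cytochrome c genes CYTC-1 and CYTC-2 had log2 changes of 0.13 (SE 0.15) and -0.20 (SE 0.32). Of the stress list, GSTU25, a glutathione transferase, had 61.7, 81.5 and 79.4 in the atm mutant against 105, 93.6 and 101 in the wild type, with the mutant wholly below the wild type. Its log2 change was -0.44 (SE 0.16, limma unadjusted p = 0.0244, adjusted p = 0.9997). AT5G51440, for a small heat shock protein of mitochondria, had 1.49 (SE 1.18), with 4 of its 6 values below the 20th percentile of their array. Of 7 marker genes listed for the whole plant label, 3 were named on the array, and RCA and PYK10 were bright on every array. RCA of green tissue had 5177, 5520 and 4826 in the atm mutant against 6177, 4133 and 4529 in the wild type, and PYK10 of roots 3478, 2931 and 3624 in the atm mutant against 2957, 3248 and 3304 in the wild type. EXPA7 of root hairs was between 21.9 and 44.8 on the 6 arrays, and above the 40th percentile on 5 of them. RCA was highest and PYK10 lowest on wild type replicate 1 and atm mutant replicate 2, a pattern that EXPA7 did not follow. Its bearing on the mitochondrial signals was not tested.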

How the data were processed

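The deposited values are MAS5 intensities on a linear scale, and the submitters' processing notes name MAS5 and GCOS. The scaling target and detection calls are not given in the sources used here. Dim MAS5 values spread widely once logged, which touches most members. Deposited intensities were used as log2, unscaled and unfiltered, after 64 control probe sets were left out. Limma 3.58.1 in R 4.3.3 (lmFit, eBayes with an intensity trend) compared 3 atm mutant with 3 wild type arrays, grouped by title, and p-values are two-sided with Benjamini-Hochberg adjustment over 22746 probe sets. An exact permutation test of 3 against 3 cannot go below 0.1. Names came from GEO's annotation of the platform (13513 with 1 gene, 503 with several, 8730 unnamed here), so further mitochondrial probe sets may be unnamed here, and 33 mitochondrial protein-coding genes came from the RefSeq table of TAIR10.1. Coordinates were not used. The number of arrays limits the precision.

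By the naming rule the text singles out called members, the 6 with the smallest p and the member with the highest mean log2 signal in each role, and the others are given because the list is short. Members and lists were chosen with earlier results of these data known. The fit was tested on simulated data. Alternatives were scaling, filters, a floor, a pseudocount, eBayes options, array weights, the replicate number as a block, and arrays left out.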

Additional observations from a re-analysis of the deposited data

How the results depend on the processing

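No alternative called a mitochondrial probe set: over 18 alternative fits the lowest limma adjusted p of any of those tested was 0.273. The 40th percentile filter left 5 of the 27 in the test and the 60th percentile filter 2. The median log2 change of the 27 was -0.20 to 0.48 with 1 array left out, and 0.10 over the 22 found by symbol alone and 0.06 over the 23 with 1 gene, both chosen after seeing the data. Sizes were less stable than signs. The floor at the 20th percentile took 5 dim members to less than their reported size, with values given in the report. With the 40th percentile added to each signal as a pseudocount, ccmB had 0.38 in place of 0.89. In that fit 257337_at of nad5 had -0.35 and the probe set of cob and AT2G07727 had 0.34. Leaving out 1 array gave -3.44 to -1.52 for 257337_at of nad5, 0.87 to 3.32 for the probe set of cob and AT2G07727, 0.61 to 2.48 for 257323_at and 0.86 to 1.89 for 257329_at of nad1, and -1.71 to -0.65 for nad7, against 0.77 to 1.14 for ccmB. Under the eBayes options, the replicate block and the covariate for the deviating arrays, the log2 change equals that of the main fit by design. With those fits counted, which cannot change a sign, named members kept their sign in 175 of 182 values. The exceptions were matR, with 0.06 under a floor at the 20th percentile and -1.42 to 0.29 with 1 array left out, nad4 (0.00 to 0.75), ccmFN1 (-0.10 to 0.21) and cox1 (-0.28 to 0.42), all with 1 array left out. Over all probe sets 30 were called, 30 lower and 0 higher. Without the intensity trend it was 16, 16 lower. Array weights gave 50 (48 lower, 2 higher). A covariate marking atm mutant replicate 2 and wild type replicate 1 gave 90 (77 lower, 13 higher), and dropping both arrays gave 111 (87 lower, 24 higher). Both of these fits rest on a choice of arrays made from these same data. With 1 array left out the calls numbered 12 to 36, of which 12 to 35 were lower and 0 to 1 higher. The cause was not tested. A replicate block left 11, all lower, and no mitochondrial probe set was called. Same-numbered arrays had deviations correlating at -0.097, -0.11 and 0.0871, so the numbers were not taken to pair the samples. The median of open reading frames and its difference from known genes could not be computed, since no such member was found. Judged by the 40th percentile of each array, low signal limits all members but nad4, cox1, ccmFN1 and mttB. Background itself was not measured, and mttB lay only just above that percentile on wild type replicate 2.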
